A study of Rattus norvegicus with 48 samples.

Results

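The messenger RNAs of 3 genes of Akt signalling, Akt1, Akt2 and Akt1s1, and of 4 genes of adiponectin signalling, Adipor1, Adipor2, Appl1 and Appl2, were followed through 3 days of fasting in rat cerebral endothelial cells (CECs), the cells that form the inner wall of brain capillaries. The 7 genes were taken by name, to set signalling of the fed state beside that of a fasting hormone. They were found among 32624 features by their Ensembl identifiers, and all 7 were among the 13050 features with at least 1 read in each sample, the filter for testing. The CECs came from the cortex of male Wistar-Han rats with free access to food (ad libitum, AL rats) or after 1, 2 or 3 days without food (F1, F2 and F3 rats), and the labels name no other treatment. Cells carrying CD11b, a microglial surface protein, were depleted and cells carrying CD31, the product of Pecam1, were retained on magnetic columns. Each group had 3 samples from independent experiments, labelled i, j and k. Each cell isolation used 4 rats, with tissue from pairs of cortices pooled for digestion. Each sample was sequenced as 4 technical replicates, which were summed here.

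Akt kinases carry the signal of insulin and of growth factors from phosphoinositides in the plasma membrane to metabolism, survival and nitric oxide synthesis. Akt1 is the main isoform of endothelium, Akt2 is the isoform best known for insulin-stimulated glucose uptake, and Akt1s1 encodes PRAS40, an Akt substrate that restrains the kinase complex mTORC1. Adiponectin is a hormone of fat tissue. Its receptors, the products of Adipor1 and Adipor2, span the membrane and are known for ceramidase activity and for signalling to AMPK and PPARα. Appl1 encodes the adaptor protein that binds the receptors and also Akt, and Appl2 encodes its close relative, which forms dimers with it. Akt activity is set by phosphorylation and receptor signalling by ligand, neither of which is measured by the amount of messenger RNA.

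Between 20718644 and 25960874 reads per sample were assigned to genes. Levels are given as normalized reads, that is reads divided by the scaled library size of the sample and multiplied by the mean scaled library size, and they compare samples for 1 gene but not genes with each other, since gene lengths were not used. F2 sample j stood apart from the other libraries. It held the lowest level of the 12 samples for 20.9% of the genes tested and the highest for 20.1%, whereas in the other 11 samples these shares lay between 5.02% and 10.8%. Some values that moved with F2 sample j are therefore given with and without it.

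None of the 7 genes passed the test for a change after 1, 2 or 3 days of fasting. At an adjusted p of at most 0.05 in edgeR's quasi-likelihood test, 0 of the 7 were called in F1, F2 or F3 against AL rats, where 6.56%, 0.858% and 12% of all genes tested were called. At these shares fewer than 1 of any 7 genes would be called, so that the count of 0 does not set the 7 genes apart from other genes. Their fold changes were bounded closely. All 21 of the 95% confidence intervals against AL rats included no change, and together they reached from 0.765-fold to 1.25-fold. No member had an unadjusted p under 0.05 in these comparisons, against 20.6%, 12.8% and 26.0% of all genes, and DESeq2 called 0 of the 7 as well. In the joint test of the 4 groups 0 of the 7 were called, against 10.1% of all genes (24.8% with an unadjusted p under 0.05, and 0 of the 7), and the smallest p was that of Appl1 (p = 0.128, adjusted p = 0.342, edgeR).

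**Figure D1:**
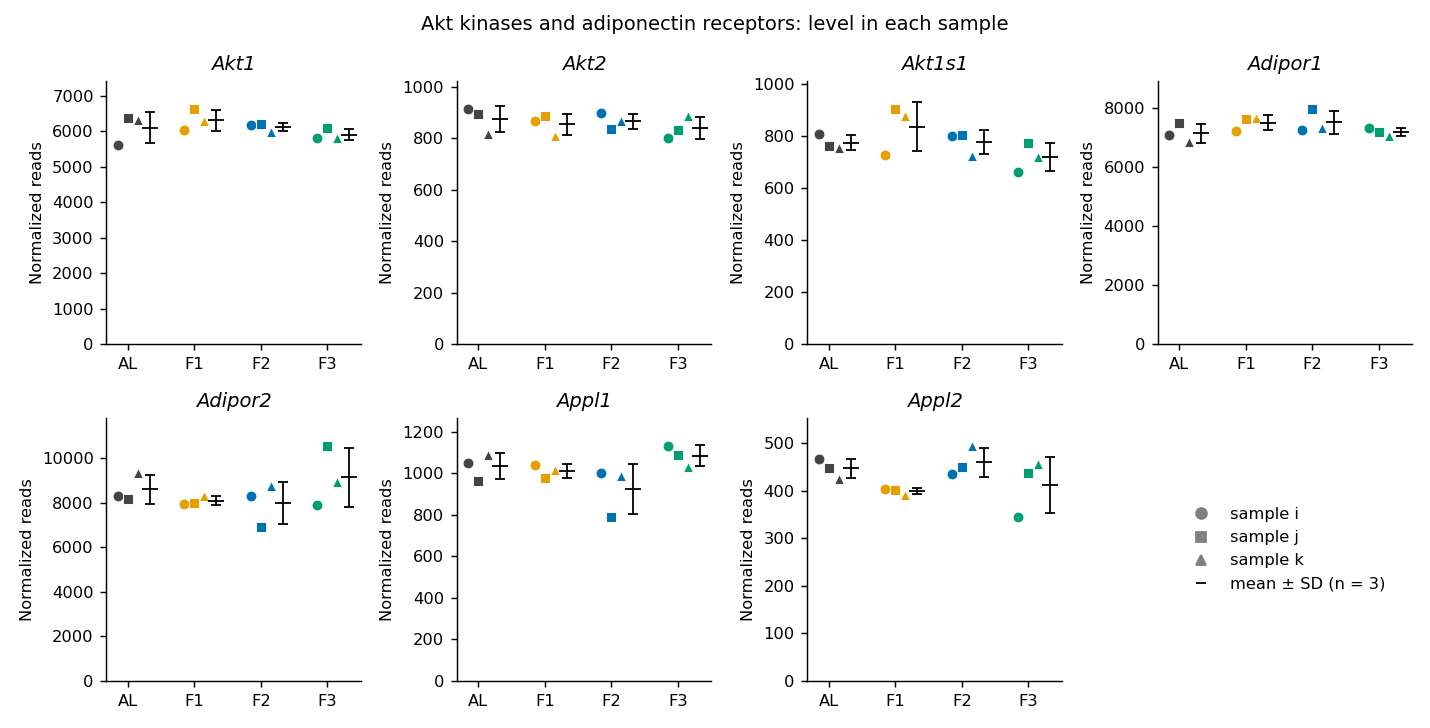
Level of each of the 7 genes in the 12 samples, in normalized reads on axes that start at 0, by group (AL, F1, F2, F3). Symbols mark samples i, j and k, and the bars beside them give the mean ± SD of 3 samples. The groups of every gene lie at nearly the same height, and F2 sample j is the lowest point for Adipor2 and Appl1.

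Akt1, the main endothelial isoform, stayed within a narrow band. It had 5600.1, 6383 and 6319 normalized reads in AL samples i, j and k, 6027, 6617 and 6278 in F1, 6166, 6197 and 5975 in F2 and 5801, 6098 and 5816 in F3. AL sample i was the lowest of the 12 and F1 sample j the highest, a ratio of 1.18 between the extremes, and every fasted group overlapped the AL group. The group means, 6101 ± 435 in AL, 6308 ± 296 in F1, 6113 ± 120.0 in F2 and 5905 ± 168 in F3 rats (SD, n = 3), were in the order F3, AL, F2 and F1, and each step in this order was smaller than the SD of at least 1 of the neighbouring groups. Log2 fold changes against AL rats were 0.05 ± 0.07 in F1 (SE, adjusted p = 0.759, edgeR), 0.00 ± 0.07 in F2 (adjusted p = 0.994) and -0.05 ± 0.07 in F3 (adjusted p = 0.744). The intervals were 0.929 to 1.15-fold, 0.901 to 1.11-fold and 0.870 to 1.08-fold, which leave room for changes of Akt1 within these bounds.

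Akt2, the isoform tied to glucose uptake, was equally steady. It had 914, 894 and 817 normalized reads in AL samples i, j and k, 870, 887 and 809 in F1, 897, 836 and 866 in F2 and 801, 831 and 887 in F3. The ranges of all 4 groups overlapped, and the extremes of the 12 samples differed 1.14-fold, the least of the 7 genes. Group means were 875 ± 51.3, 855 ± 40.8, 866 ± 30.5 and 840 ± 43.5 in AL, F1, F2 and F3 rats (SD, n = 3). The log2 fold changes were -0.03, -0.01 and -0.06 in F1, F2 and F3, each with an SE of 0.07, and the adjusted p-values were 0.846, 0.959 and 0.677 (edgeR). RefSeq lists a pseudogene of Akt2, Akt2-ps1, and alignments to several places were discarded by the authors, so that reads shared between near-identical copies may be missing from the Akt2 counts.

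Akt1s1, the gene of PRAS40, showed a wider spread. It had 806, 759 and 753 normalized reads in AL samples i, j and k, 727, 902 and 874 in F1, 799, 803 and 723 in F2 and 663, 771 and 719.9 in F3. F1 samples j and k were the highest of the 12 and F3 sample i the lowest, but F1 sample i lay below all AL samples and the groups overlapped. Means were 773 ± 28.9, 834 ± 94.2, 775 ± 45.4 and 718 ± 54.1 in AL, F1, F2 and F3 rats (SD, n = 3). The log2 fold change was 0.11 ± 0.09 in F1 (SE, adjusted p = 0.555, edgeR), 0.00 ± 0.09 in F2 (adjusted p = 0.995) and -0.11 ± 0.09 in F3 rats (adjusted p = 0.519). Between F3 and F1 rats the values differed by -0.22 ± 0.09 on the log2 scale, a fold of 0.750 to 0.987, with an unadjusted p of 0.0340 and an adjusted p of 0.996 (edgeR). In that comparison 4.44% of all genes had an unadjusted p under 0.05 and 0.00% were called. DESeq2 called 24 of all genes there and 0 of the 7.

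Adipor1 varied little between samples. It had 7068, 7498 and 6855 normalized reads in AL samples i, j and k, 7212, 7630.1 and 7671 in F1, 7245, 7955 and 7321 in F2 and 7332, 7176 and 7041 in F3. The highest level was that of F2 sample j and the lowest that of AL sample k, 1.16-fold apart, and each fasted group overlapped the AL group. Means were 7140.2 ± 327 in AL, 7504 ± 254 in F1, 7507 ± 390 in F2 and 7183 ± 146 in F3 rats (SD, n = 3). The log2 fold changes against AL rats were 0.07, 0.07 and 0.01, each with an SE of 0.07, with adjusted p-values of 0.612, 0.712 and 0.958 (edgeR). The value of F2 fell to 0.03 ± 0.06 (SE) without F2 sample j.

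Adipor2 was the most variable of the 7 genes between samples. It had 8302, 8155 and 9329 normalized reads in AL samples i, j and k, 7954, 7993 and 8312 in F1, 8284, 6915 and 8737 in F2 and 7908, 10546 and 8934 in F3. Both extremes, 1.53-fold apart, were j samples, F2 sample j at the bottom and F3 sample j at the top, and the range of F3 enclosed those of AL and F1. The group means were 8595 ± 640, 8086 ± 196, 7979 ± 948 and 9129 ± 1330 in AL, F1, F2 and F3 rats (SD, n = 3). Log2 fold changes against AL rats were -0.09 in F1, -0.11 in F2 and 0.09 in F3, each with an SE of 0.11, and the adjusted p-values were 0.706, 0.729 and 0.682 (edgeR). Without F2 sample j the value of F2 was -0.01 ± 0.10, and without F3 sample j that of F3 was -0.03. The interval was widest for this gene, up to 1.25-fold in F3 and down to 0.789-fold in F2 rats.

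**Figure D2:**
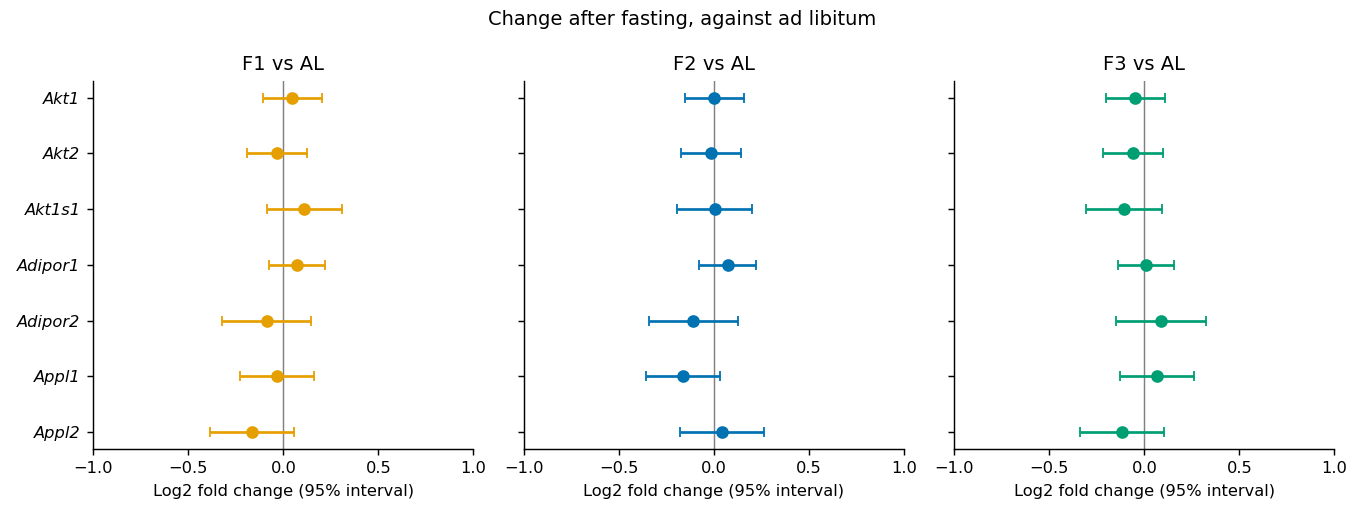
Log2 fold change of the 7 genes in F1, F2 and F3 against AL rats, with 95% confidence intervals from the quasi-likelihood fit of the 12 samples, on an axis from -1 to 1. All 21 intervals cross 0, and the estimates lie between -0.16 and 0.11.

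Appl1, the gene of the adaptor that links the receptors and Akt, had its lowest group mean on day 2. It had 1052, 965 and 1090.0 normalized reads in AL samples i, j and k, 1039.6, 976 and 1017 in F1, 1001, 788 and 986 in F2 and 1132, 1091 and 1033 in F3. The 3 F3 samples were all above the 3 F2 samples, and F2 sample j was far below the rest. Means were 1036 ± 64.0 in AL, 1011 ± 32.1 in F1, 925 ± 119 in F2 and 1085 ± 50.1 in F3 rats (SD, n = 3). Against AL rats the log2 fold change was -0.03 ± 0.09 in F1 (SE, adjusted p = 0.871, edgeR), -0.16 ± 0.09 in F2 (adjusted p = 0.489) and 0.07 ± 0.09 in F3 (adjusted p = 0.701). From F2 to F3 it was 0.23 ± 0.09, a fold of 1.03 to 1.34, with an unadjusted p of 0.0237 and an adjusted p of 0.152 (edgeR), the smallest adjusted p of any member in any comparison of 2 groups. Leaving out F2 sample j brought this value to 0.13 ± 0.07 (SE, adjusted p = 0.358, edgeR) and the value of F2 against AL rats to -0.06 ± 0.07 (adjusted p = 0.757).

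Appl2, the gene of the related adaptor, had 467, 448 and 426 normalized reads in AL samples i, j and k, 403, 401 and 392 in F1, 436, 449.8 and 494 in F2 and 345, 437 and 456 in F3. All 3 F1 samples lay below all AL and all F2 samples, within a few reads of each other, and F3 sample i was the lowest of the 12. The means were 447 ± 20.5, 399 ± 6.39, 460.0 ± 30.4 and 413 ± 59.1 in AL, F1, F2 and F3 rats (SD, n = 3). The log2 fold changes against AL rats were -0.16 in F1, 0.04 in F2 and -0.12 in F3, each with an SE of 0.10, with adjusted p-values of 0.410, 0.904 and 0.533 (edgeR). From F1 to F2 the value was 0.21 ± 0.10 (adjusted p = 0.329). Without F3 sample i, at 345 the lowest, the F3 value against AL rats was -0.0024 ± 0.09 (SE), and without F3 sample k it was -0.20 ± 0.11. The F1 fold of 0.765 to 1.04 against AL rats reached further down than that of any other member.

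Groups without overlap were no more frequent among the 7 genes than among all genes. In F1 against AL rats this held for 1 of the 7, Appl2, and for 28.7% of the genes tested. In F2 against AL rats it held for 0 of the 7 and for 15.5% of the genes, and in F3 against AL rats for 0 of the 7 and 35.6%. Between days of fasting it held for Appl2 in F2 against F1 rats (21.8% of all genes), for Appl1 in F3 against F2 rats (26.8%) and for 0 of the 7 in F3 against F1 rats (13.0%).

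Direct comparisons between days called none of the 7 either. Of all genes, 1.43% were called in F2 against F1 rats, 5.94% in F3 against F2 rats and 0.00% in F3 against F1 rats. Appl1 was the only member with an unadjusted p under 0.05 in F3 against F2 rats, where 22.0% of all genes had one, and 0 of the 7 had one in F2 against F1 rats, where 17.3% of all genes did. Of the 42 intervals over the 6 comparisons of 2 groups, 40 included no change, the exceptions being those of Appl1 and Akt1s1 given above.

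The fed and the fasting side of the 7 genes were set side by side by their medians, in which members of opposite sign offset each other. The median log2 fold change of Akt1, Akt2 and Akt1s1 was 0.05 in F1, 0.00 in F2 and -0.06 in F3 against AL rats. That of Adipor1, Adipor2, Appl1 and Appl2 was -0.06, -0.03 and 0.04 in the same comparisons, which share the AL samples. Between days, the medians of the fed and the fasting side were -0.05 and -0.01 in F2 against F1 rats and -0.05 and 0.07 in F3 against F2 rats. In F3 against F1 rats they were -0.10 and 0.08. The fasting-side values of that comparison ran from -0.06 to 0.18, and 0.00% of all genes were called in it. The median size of the change against AL rats, regardless of sign, was 0.07, 0.04 and 0.07 for the 7 genes against 0.16, 0.13 and 0.18 for all genes tested, whose median signed change was within 0.01 of 0. The median SE was 0.09 for the 7 genes and 0.13 for all genes tested.

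The balance between paired members was followed as the log2 ratio of their normalized reads within each sample, a description whose absolute value depends on gene length. The ratio of Akt1 to Akt2 was the steadiest, with means of 2.80 ± 0.17, 2.88 ± 0.08, 2.82 ± 0.06 and 2.82 ± 0.09 in AL, F1, F2 and F3 rats (SD, n = 3) and a range of 0.34 over the 12 samples. That of Adipor1 to Adipor2 was -0.27 ± 0.16, -0.11 ± 0.04, -0.08 ± 0.25 and -0.34 ± 0.22, with a range of 0.76 from -0.56 in F3 sample j to 0.20 in F2 sample j, the only sample in which it was above 0. Without F2 sample j the F2 mean was -0.22. The ratio of Appl1 to Appl2 was 1.21 ± 0.13 in AL, 1.34 ± 0.05 in F1, 1.00 ± 0.20 in F2 and 1.40 ± 0.28 in F3 rats. It was lowest in F2 sample j (0.81) and highest in F3 sample i (1.71), and F2 was the group with the lowest mean also without sample j (1.10).

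**Figure D3:**
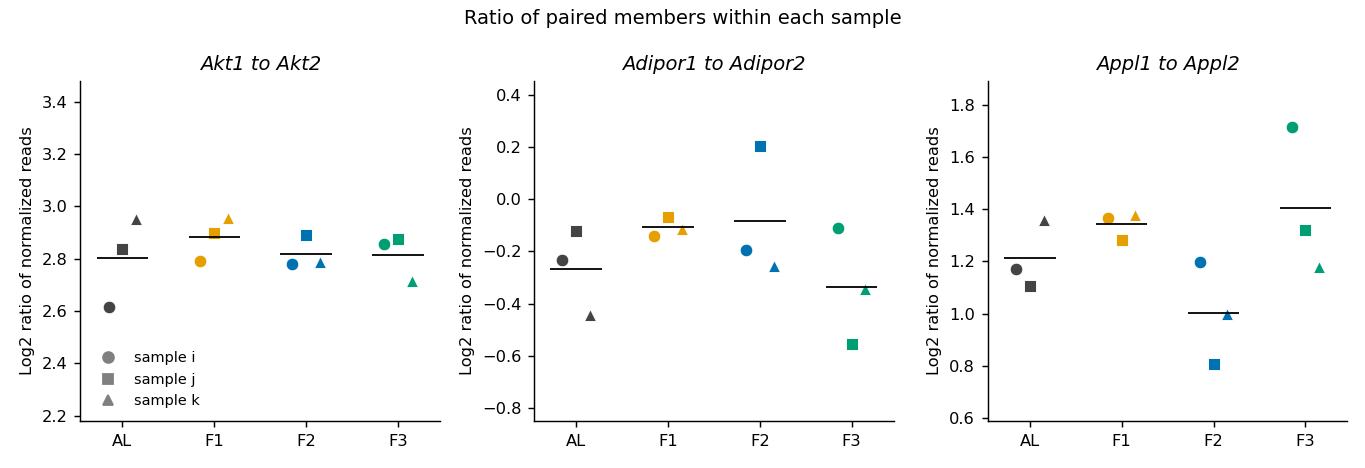
Log2 ratio of normalized reads of Akt1 to Akt2, Adipor1 to Adipor2 and Appl1 to Appl2 within each of the 12 samples, by group, on axes of equal span. Lines give group means (n = 3). Akt1 to Akt2 spans 0.34 over the samples, and the other ratios span 0.76 and 0.91, with F2 sample j at an extreme of both.

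Across the 12 samples the receptor genes varied in opposite directions. As descriptions over samples that include the 4 groups, Adipor1 and Adipor2 had a Pearson correlation of -0.677 (Spearman -0.643), Adipor1 and Appl1 one of -0.752 (Spearman -0.643), and Adipor2 and Appl1 one of 0.656 (Spearman 0.371). After the group means were removed the Pearson values were -0.589, -0.762 and 0.538. F2 sample j carried part of each relation, and without it they were -0.488, -0.545 and 0.351. Without the 2 samples farthest from the median of the first gene they were -0.386, -0.451 and 0.122. Over the 12 samples, the remaining pairs with a size over 0.5 were Akt2 with Appl2 (0.574) and Akt1 with Akt1s1 (0.568). Within groups these were 0.563 and 0.361, and without F2 sample j 0.623 and 0.562. Without the 2 farthest samples they were 0.146 and 0.716. Akt2 with Appl1 went from -0.175 to -0.639 without F2 sample j, and was 0.058 without the 2 farthest samples.

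**Figure D4:**
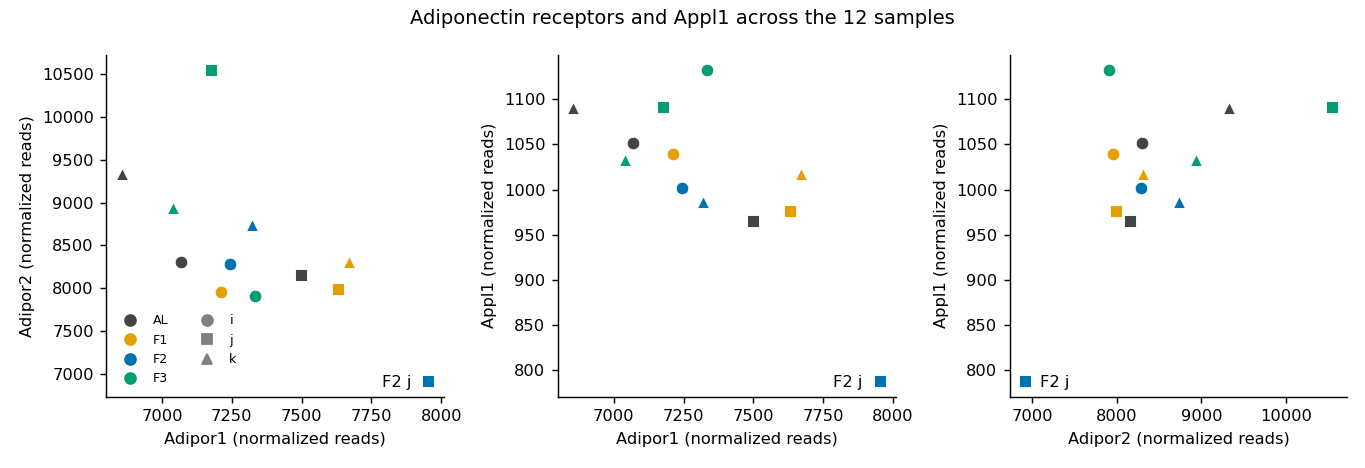
Normalized reads of Adipor1 and Adipor2, Adipor1 and Appl1, and Adipor2 and Appl1 in the 12 samples, coloured by group with symbols for samples i, j and k, on axes that do not start at 0. F2 sample j, labelled, lies at the end of each cloud, with the highest Adipor1 and the lowest Adipor2 and Appl1.

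The genes whose log2 level over the 12 samples was most like that of a member were sought among 1257 genes with a symbol and a mean of at least 100 normalized reads, most of them with symbols up to Ccng1 in the alphabet. Adipor1 was matched most closely, by Arhgdia, the gene of a GDP-dissociation inhibitor (Pearson 0.952). Appl1 was matched by Akap11, the gene of an anchor of protein kinase A (0.924). Without F2 sample j these values were 0.922 for Adipor1 and 0.715 for Appl1. Appl2 was nearest to Baz1a, a chromatin remodelling gene (0.854), and Adipor2 to Ago1, a gene of small RNA silencing (0.809). Akt1 was nearest to Ccdc97 (0.792), Akt1s1 to Abhd8 (0.786) and Akt2, with the lowest likeness, to Ap3d1 (0.649). The second genes of the other 6 members were Ccdc130, Atf6b, Acvr2a, Atf2, C2cd5 and, for Appl1, a feature named after a clone, with values between 0.645 and 0.911. These are the highest values among many genes and are given as descriptions.

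Genes of the same pathways were counted in 10 lists of 117 genes, of which 33 genes in 6 lists had an identifier and were tested. In F1 against AL rats 2 of the 33 rose and 0 fell, in F2 against AL rats 0 rose and 0 fell, and in F3 against AL rats 2 rose and 1 fell, beside all-gene shares of 3.87%, 0.490% and 6.28% for rises and 2.69%, 0.368% and 5.77% for falls. Between days, 1 of the 33 fell in F2 against F1 rats and 0 rose, beside 0.989% and 0.437% of all genes, and 1 rose in F3 against F2 rats and 0 fell, beside 3.62% and 2.32%. The unadjusted p was under 0.05 for 9, 5 and 10 of the 33 in F1, F2 and F3 against AL rats, beside 20.6%, 12.8% and 26.0% of all genes. The median log2 fold changes of the 33 genes were -0.02, 0.06 and -0.02, beside medians of 0.00, -0.01 and -0.01 for all genes tested. The genes that changed were Acer2, Bcl2l11 and Calr.

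Acer2 encodes an alkaline ceramidase of the Golgi, an enzyme that, like the adiponectin receptors, is known for hydrolysing ceramide. It had 45225, 54546 and 37611 normalized reads in AL samples i, j and k, 85774.5, 88096 and 74108 in F1, 53135, 51066 and 50400.4 in F2 and 80959, 68643 and 72299.8 in F3. All F1 and F3 samples were above all AL and all F2 samples. Acer2 rose 1.81-fold in F1 (1.51 to 2.16, adjusted p = 0.00144, edgeR) and 1.62-fold in F3 rats (1.35 to 1.94, adjusted p = 0.00251), whereas F2 rats had 1.13-fold the AL level (0.939 to 1.35, adjusted p = 0.603). It was lower in F2 than in F1 rats by 0.68 ± 0.12 (SE) on the log2 scale (log2 fold change -0.68, adjusted p = 0.0292) and rose by 0.52 ± 0.12 from F2 to F3 (adjusted p = 0.0256). The call of F2 against F1 was lost without F1 sample i or j, F2 sample k or F3 sample k (adjusted p 0.0515 to 0.136), and that of F3 against F2 without F2 sample k or F3 sample i or k (0.0600 to 0.121). The other 3 ceramidase genes tested, Acer3, Asah1 and Asah2, were not called in any comparison, so that 1 of 4 changed.

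Bcl2l11, the gene of the cell death protein BIM and a known target of the FoxO factors that Akt restrains, had 749, 958 and 630.0 normalized reads in AL samples i, j and k, 1405, 1120.2 and 1037 in F1, 1297, 909.5 and 1075 in F2 and 1239, 1140 and 1136 in F3. The F1 and F3 samples were all above the AL samples, and those of F2 overlapped them. It rose 1.52-fold in F1 (1.19 to 1.94, adjusted p = 0.0452, edgeR) and 1.50-fold in F3 rats (1.18 to 1.92, adjusted p = 0.0344). F2 rats had 1.40-fold the AL level (1.10 to 1.79, unadjusted p = 0.0106, adjusted p = 0.212, edgeR). The F2 interval, which is not adjusted for the number of genes, excluded no change, but the gene was not called there. The F1 call was lost without AL sample i or k, F1 sample i or j, F2 sample k or any F3 sample (adjusted p 0.0598 to 0.153), and the F3 call without AL sample i or k or any F3 sample (0.0668 to 0.119). Both were lost with no filter on low counts (0.0748 and 0.0595), and the F1 call also with only the 6 samples compared (0.0926). It was the 1 gene called of the 5 FoxO targets tested, out of 18 listed. An unadjusted p under 0.05 was found for 5, 3 and 5 of them in F1, F2 and F3 against AL rats, beside 20.6%, 12.8% and 26.0% of all genes, and the median log2 fold change was 0.48, 0.32 and 0.55.

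Calr, the gene of calreticulin, an endoplasmic reticulum chaperone known also as a binding partner of adiponectin at the cell surface, had 10445, 11361 and 10602 normalized reads in AL samples i, j and k, 9079.9, 10004 and 9412 in F1, 9111, 10024 and 9209 in F2 and 8228, 8102 and 8777 in F3. All fasted samples were below all AL samples. The fold change was 0.879 in F1 (0.788 to 0.981, unadjusted p = 0.025, adjusted p = 0.167, edgeR) and 0.875 in F2 (0.784 to 0.976, unadjusted p = 0.0204, adjusted p = 0.279). Both intervals excluded no change, but neither comparison was called. Calr fell to 0.775-fold in F3 rats (0.694 to 0.865, adjusted p = 0.00554, edgeR). The other 7 genes tested in the list of adiponectin-like ligands and binding proteins were not called.

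The messenger RNA of adiponectin itself was scarce in these cells. Adipoq had between 16 and 35 raw reads in each of the 12 samples, with means of 21.0, 27.8, 23.6 and 27.6 normalized reads in AL, F1, F2 and F3 rats, and the log2 fold changes of 0.41 ± 0.31, 0.17 ± 0.31 and 0.39 ± 0.30 (SE) had adjusted p-values of 0.499, 0.858 and 0.457 (edgeR). The F1 interval ran from 0.840 to 2.09-fold. Aktip, which encodes an Akt-interacting protein of vesicle traffic, differed by 0.09, -0.04 and 0.13, with an SE of 0.07 and adjusted p-values of 0.511, 0.853 and 0.251 (edgeR).

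**Figure D5:**
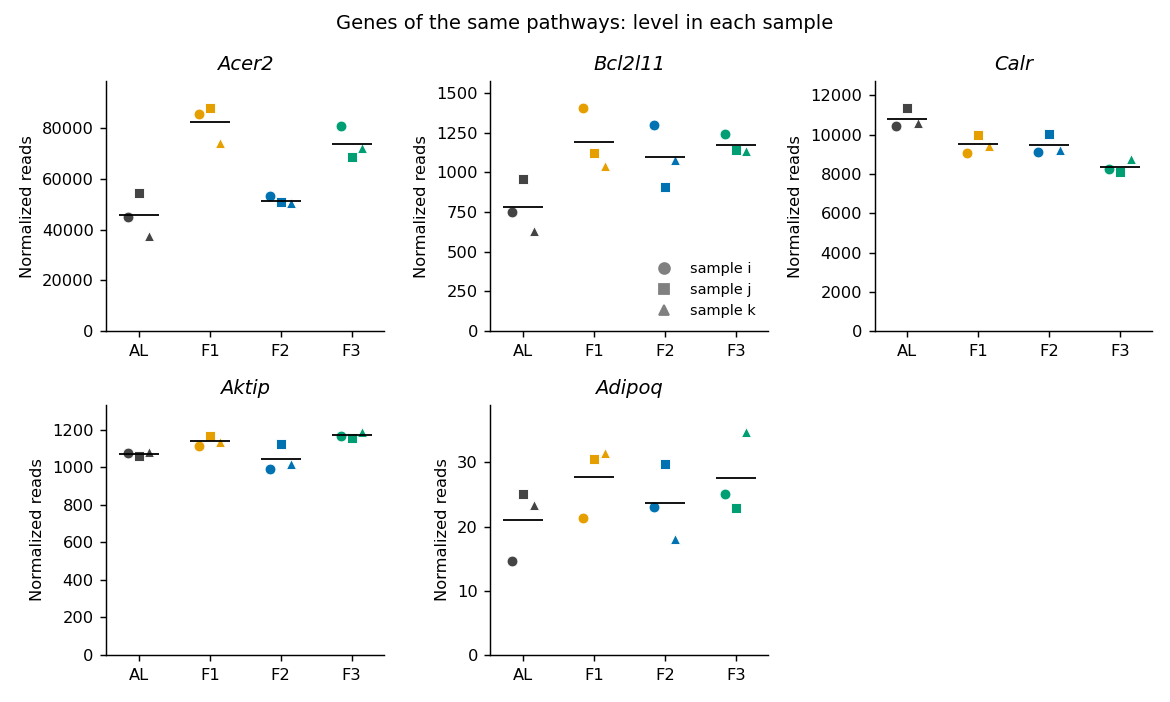
Normalized reads of Acer2, Bcl2l11, Calr, Aktip and Adipoq in the 12 samples, by group, on axes that start at 0, with symbols for samples i, j and k and lines for group means (n = 3). Acer2 is high in F1 and F3 and near the AL level in F2, Calr is below AL in every fasted sample, and Adipoq lies between 14.7 and 34.8 normalized reads.

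The remaining lists tested, the Akt family and partners (4 of 9 genes), Akt substrates (6 of 16) and the AMPK axis (6 of 17), had no gene called in any comparison of 2 groups. The insulin and PI3K, mTOR, PAQR and APPL partner lists had no identifier and were not analysed here.

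The cells carried endothelial markers. Of 14 such genes 7 had an identifier, and all 7, Pecam1, Slc2a1, Adgrf5, Adgrl4, Abcb1a, Abcg2 and Bsg, were read in every sample. Their summed level was 710500 to 760400 normalized reads in AL and 822900 to 867500 in fasted rats. Most of this difference lay in Slc2a1, the glucose transporter gene, which had 257300 to 309100 normalized reads in AL and 355200 to 416000 in fasted rats. The sum of the other 6 was 440300 to 453100 in AL and 451400 to 480300 in fasted rats, with overlap, and Pecam1 averaged 33090, 37030, 32110 and 33890 in AL, F1, F2 and F3 rats. Slc2a1 and Adgrl4 were called higher in F1 and F3 against AL rats, 2 of the 7 each time, beside 3.87% and 6.28% of all genes. In F2 against AL rats 0 were called. For Adgrl4 the log2 fold change was 0.39 ± 0.09 in F1 (SE, adjusted p = 0.0244, edgeR) and 0.49 ± 0.09 in F3 (adjusted p = 0.00378). The sum over 3 of 7 pericyte markers was 2555 to 6301 in AL, 2801 to 3134 in F1, 3396 to 6636 in F2 and 2268 to 6184 in F3 rats. Among them Abcc9 and Anpep had Pearson correlations of -0.557 and -0.607 with Akt1 over the 12 samples (-0.550 and -0.618 without F2 sample j), and of between -0.321 and 0.344 with the other 6 genes. The sum over 3 of 7 astrocyte markers was 3871 to 8830 normalized reads, and Aldoc, one of these, had a correlation of 0.595 with Akt1s1, 0.555 with Adipor1, -0.556 with Appl1 and -0.481 with Adipor2. Without F2 sample j these were 0.597, 0.406, -0.397 and -0.308. The 6 of 9 microglial markers summed to 56.7 to 134 normalized reads, and the neuronal marker Bsn did not exceed 9.20. The part of such cells in the levels of the 7 genes was not tested, and in sorted bulk samples fewer cells of a type and less RNA per cell cannot be told apart.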

How the data were processed

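RNA-Seq was performed on 12 samples of sorted CECs. After trimming and quality filtering, the authors used STAR with the Rnor_6.0 assembly and Ensembl annotation, kept uniquely matching reads and counted exon overlaps with HTSeq-count 0.5.3. The deposited values are raw counts per gene, 1 file per technical replicate. The libraries were strand-specific, but the strand setting of the counting is not given in the sources used here. Whether reads of an antisense neighbour were kept out of a gene's count is therefore not known. Technical replicates were summed. For technical replicate d of F1 sample k, the title and the treatment label disagree. Its counts went with its title. Over genes with at least 20 reads, chi-square per degree of freedom among the technical replicates of F1 sample k was 1.0155, beside 1.0036 to 1.0223 over all samples. Between samples of a group it was 9.7456 to 51.502. Replicate d was kept by its title and left out in an alternative.

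Genes with at least 1 read in each sample entered edgeR 4.0.16 in R 4.3.3 (quasi-likelihood F test, TMM scaling, robust spread), as 1 model of 4 group means. P-values were adjusted by Benjamini-Hochberg over 13050 genes. Standard errors and intervals come from the same fit. Log2 CPM used a prior count of 2. Symbols come from the supplementary tables as held here, except that of Pecam1, whose feature is named gene-Pecam1 in the counts. With it, 2043 of the genes tested were paired.

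All 7 members are named, with Aktip, Adipoq, pathway genes called (at most 3 per list and comparison) and the 2 genes most like each member. Some genes that this rule names are not reported here. The members and lists were chosen with earlier results of these data known. Alternatives were 3 scalings, DESeq2 1.42.0, 3 filters, only the 6 samples compared, the letter as a block and each sample left out. A fit without the robust spread, and correlations without F2 sample j, were added after seeing the data. Samples of a group came from independent experiments. The intervals use an estimate of spread per gene that is pooled over all groups and drawn towards that of other genes. They do not measure the spread of the 2 groups compared alone.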

Additional observations from a re-analysis of the deposited data

How the results depend on the processing

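Under all 23 alternatives, of which the fit without robust spread was added after seeing the data, 0 of the 7 genes were called in any comparison, and the lowest adjusted p of a member was 0.107 (F3 against F2 rats). Of 966 fold changes of the members under an alternative, 34 had the other sign, all in 14 fold changes of at most 0.087 in size. With total counts only, Akt1 was at -0.012 in F1 and -0.033 in F2, Akt1s1 at -0.033 in F2 and Adipor1 at -0.037 in F3 against AL rats, and Adipor2 at 0.0031 in F2 against F1 rats. Upper-quartile scaling gave 0.0066 for Akt2 in F2 against AL and 0.0011 for Adipor2 in F2 against F1 rats. For Adipor1 in F2 against F1 rats filterByExpr gave -0.0006 and the replicate block -0.0005. With a sample left out, the log2 fold changes with a sign change against AL rats ran from -0.011 to 0.080 (Akt1, F1), -0.053 to 0.033 (Akt1, F2), -0.082 to 0.0059 (Akt2, F1), -0.060 to 0.021 (Akt2, F2), -0.024 to 0.051 (Akt1s1, F2), -0.022 to 0.038 (Adipor1, F3), -0.030 to 0.181 (Adipor2, F3), -0.090 to 0.0006 (Appl1, F1), -0.013 to 0.078 (Appl2, F2) and -0.034 to 0.334 (Adipoq, F2). Against F1 rats they ran from -0.020 to 0.045 (Akt2, F2), -0.066 to 0.0062 (Akt2, F3), -0.043 to 0.025 (Adipor1, F2), -0.090 to 0.074 (Adipor2, F2) and -0.028 to 0.162 (Appl2, F3). Counts over all genes also moved. DESeq2 called 359 genes in F2 against AL (main 112), 616 in F2 against F1 (186), 1228 in F3 against F2 (775), 24 in F3 against F1 (0) and 2090 in the joint test (1321). With only the 6 samples compared the counts were 0 in F2 against AL, 65 in F2 against F1, 260 in F3 against F2 and 9 in F3 against F1 rats, and no filter gave 9 in the last. With a sample left out they ran from 306 to 1451 in F1, 34 to 157 in F2 and 790 to 2366 in F3 against AL, 0 to 194 in F2 against F1, 164 to 755 in F3 against F2, 0 to 6 in F3 against F1 and 738 to 1782 in the joint test. F2 sample j gave the highest counts of F1 and F3 against AL rats when left out, and the cause was not tested. Sample letters are shared by the groups, and the labels do not say whether a letter marks a shared experiment. Same-lettered samples deviated together, with a correlation over 0.1, in 2 of 18 pairs (median 0.028). Samples of different letters and groups did so in 1 of 36 pairs (median -0.026). Of 12 samples, 5 correlated best with a sample of their own letter. With few pairs and small correlations, these values cannot decide whether the letters pair the samples. With the letter as a replicate block 108 genes were called in F2 against F1 and 1 in F3 against F1 rats. Of 299 fold changes of the named pathway genes under an alternative, 274 kept their direction and their side of the threshold, 23 lost the call and 2, of Adipoq above, changed sign. With 3 samples per group the intervals of the members leave room for changes within 0.765 to 1.25-fold of AL rats.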
